A study of Arabidopsis thaliana with 18 samples.

Results

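The nuclear genes described here are those on chromosomes 1 to 5 whose name in the deposited tables begins with RPL or RPS followed by a digit, the naming pattern of ribosomal protein genes of the large (RPL) and small (RPS) subunit. The pattern selected 253 of the 32833 genes in each table. By annotation, 113 of them encoded proteins of the large subunit of the cytosolic ribosome and 91 proteins of its small subunit, and these 204 genes fell into 74 families of paralogs, 43 in the large and 31 in the small subunit. A further 32 encoded plastid ribosomal proteins, 10 mitochondrial ones and 2 (RPS16-1 and RPS16-2) organellar ones whose compartment was not assigned. The remaining 5 were not ribosomal at all but disease-resistance genes that carry the same prefix, among them RPS2_2, RPS4_1, RPS4B_2 and RPS6 (AT5G46470). The reference gave 136 more nuclear genes under other names a product text that names a ribosomal protein, and these were kept apart. Such a text can be a family description, as for the elongation factor gene LOS1, so not all of them need be ribosomal. Gene names are those of the deposited tables. RefSeq calls the gene named RPS13B here RPS13A.

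Total RNA was sequenced from Arabidopsis thaliana seedlings raised for 3 days in darkness at 21 °C, in 18 libraries, 3 for each of 6 groups. The 3 genotypes, all in the Col-0 ecotype, were each grown on 1/2 MS medium (Murashige and Skoog salts) without sucrose and on the same medium with 1% sucrose. The genotypes were Col-0, the gnc gnl double mutant, which lacks function of a pair of related GATA factors, GNC and GNL, and GNLox, in which GNL is overexpressed. The sources used here do not state the mutant alleles, the promoter of the overexpression construct, the number of independent lines or whether the 3 replicates came from separate cultures. All p-values therefore refer to the spread among libraries, which may be technical.

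Ribosomes are built from ribosomal RNA and a fixed set of ribosomal proteins, and making them is among the costliest activities of a growing cell. In plants nearly every cytosolic ribosomal protein is encoded by several paralogous nuclear genes, so that a family can meet its demand from more than 1 gene and ribosomes of different paralog composition can form. Plastids and mitochondria have ribosomes of their own, of bacterial type, most of whose proteins are also encoded in the nucleus. Sugar, sensed in part through the TOR kinase and its target S6 kinase, is known to promote ribosome production in Arabidopsis seedlings.

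Libraries held 27362791 to 41942516 reads assigned to genes. Reads of rRNA genes made up 1.00% to 25.4% of them and reads of the plastid genome 0.915% to 23.3%, and the highest of both shares were in GNLox without sucrose, replicate 3, which also stood farthest from its replicates. Levels are therefore given as normalised read counts (CPM, scaled to the library total) after scaling by the trimmed mean of M-values (TMM), and levels of different genes are compared only as length-normalised values (TPM). GNL (GATA22 in the tables) reached 5870 ± 640 CPM (SD, n = 3) in GNLox without sucrose and 4190 ± 1240 with sucrose, against 13.5 ± 7.99 and 1.90 ± 0.808 in Col-0. GNC (GATA21) was at 9.0 ± 0.426 CPM in the libraries labelled gnc gnl without sucrose and at 27.4 ± 9.18 in Col-0. GNL did not separate the mutant libraries: it ranged from 7.12 to 11.1 CPM in them and from 5.85 to 21.8 in Col-0 without sucrose, and with sucrose from 3.16 to 5.32 against 0.971 to 2.38. The sources used here do not state where in GNL the mutation lies, so these reads do not check that allele. Seed storage transcripts summed to at most 22.5 CPM in any library.

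Of the 253 genes, 239 passed the filter on low counts and were tested. The other 14 had between 0 and 86 reads over all 18 libraries. They were RPL22A, RPL27AA, RPL30A, RPL37AB, RPL13C, RPL8B, RPS27AA, RPS15AC, RPS23A, RPS15B, RPS15C, RPS15E and RPS15F of the cytosolic ribosome and RPL12B_1 of the plastid. Among the 247 genes with any read, 217 drew at least 95% of their reads from a single place in the genome. Only 9 drew under 50%, so that their counts are shared with near-identical copies, and RPL27AB, RPS2B_1 and RPS2B_3 had no unique read. In the annotation 73 of the 253 genes overlap another gene, 57 of them 1 on the opposite strand, and the sources used here do not state the strand of the reads.

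Sucrose raised cytosolic ribosomal protein transcripts in all 3 genotypes, in both subunits and in nearly every family. In Col-0 the summed level of the large-subunit genes was 6466, 6445 and 6341 CPM without sucrose and 7878, 7894 and 7884 with it. For the small subunit the sums were 5305, 5304 and 5273 CPM without sucrose and 6364, 6354 and 6320 with it. Each sucrose library lay above each library without sucrose. The ratio of group means was 1.23 for the large and 1.20 for the small subunit. In gnc gnl the large-subunit sum was 7913, 7185 and 6611 CPM without sucrose and 9335, 8806 and 8414 with it, and the small-subunit sum 6440, 5911 and 5393 without and 7323, 6965 and 6631 with it. The groups did not overlap for either subunit, although replicates within a group differed more than in Col-0. In GNLox the large-subunit sum was 6584, 6547 and 6428 CPM without sucrose and 9525, 10371 and 8936 with it, ratios of means being 1.47 for the large and 1.38 for the small subunit. These summed levels are descriptions without a test. On the scale of the deposited TPM, which are not TMM-scaled, the log2 differences with sucrose were larger, 0.375, 0.665 and 1.064 for the large subunit in Col-0, gnc gnl and GNLox.

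**Figure D1:**
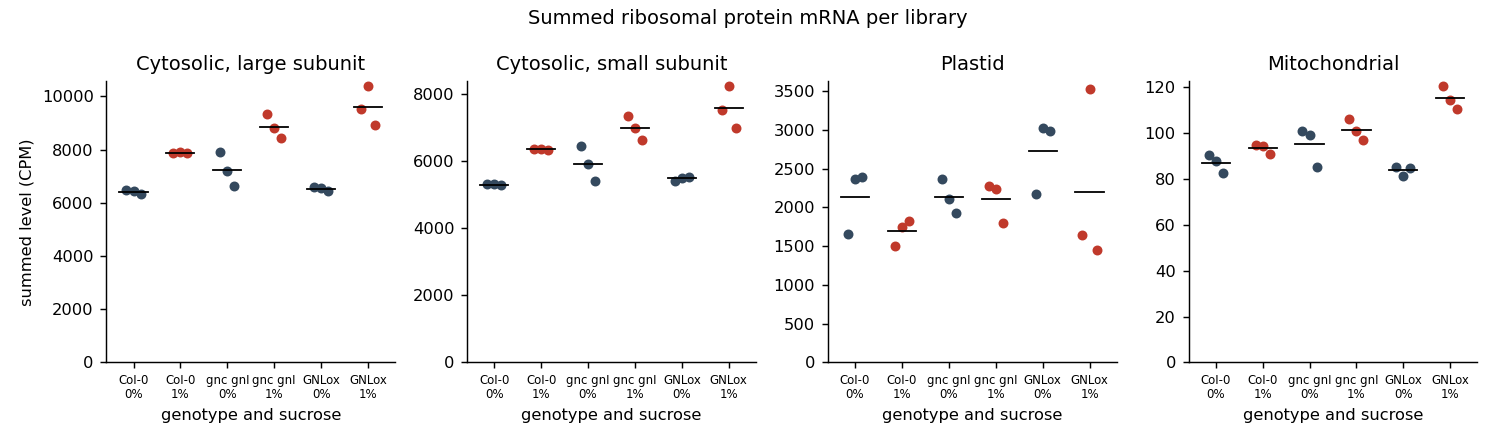
Summed TMM-scaled CPM of the cytosolic large, cytosolic small, plastid and mitochondrial ribosomal protein genes in each of the 18 libraries, by group, with bars at the group means. The cytosolic sums with sucrose lie above those without in each genotype. The highest cytosolic group means are those of GNLox with sucrose, whose libraries overlap those of gnc gnl with sucrose. The plastid sums overlap between the media.

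Tested gene by gene with edgeR's quasi-likelihood test (adjusted p under 0.05, Benjamini-Hochberg over all 21903 genes tested), 133 of the 191 tested cytosolic genes rose with sucrose in Col-0 and 4 fell, where 26.0% of all genes rose and 23.8% fell. The median change was 0.39 on the log2 scale over 107 large-subunit genes and 0.33 over 84 small-subunit genes, against 0.00 over all genes. In gnc gnl 121 rose and 2 fell (17.9% and 14.3% of all genes), with medians of 0.35 and 0.25. In GNLox 171 rose and 2 fell (28.7% and 26.1% of all genes), with medians of 0.68 and 0.57. By subunit, 75 large and 58 small members rose in Col-0, 74 and 47 in gnc gnl, and 97 and 74 in GNLox. Of the 171 that rose in GNLox, 112 rose in all 3 genotypes and 29 passed the test in GNLox and in neither other genotype; most of these 29 did not pass the test of a difference between genotypes, which is given below. The 2 media did not overlap for 162 of the 191 genes in Col-0, 132 in gnc gnl and 171 in GNLox, compared with 59.5%, 49.5% and 54.8% of all genes.

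**Figure D2:**
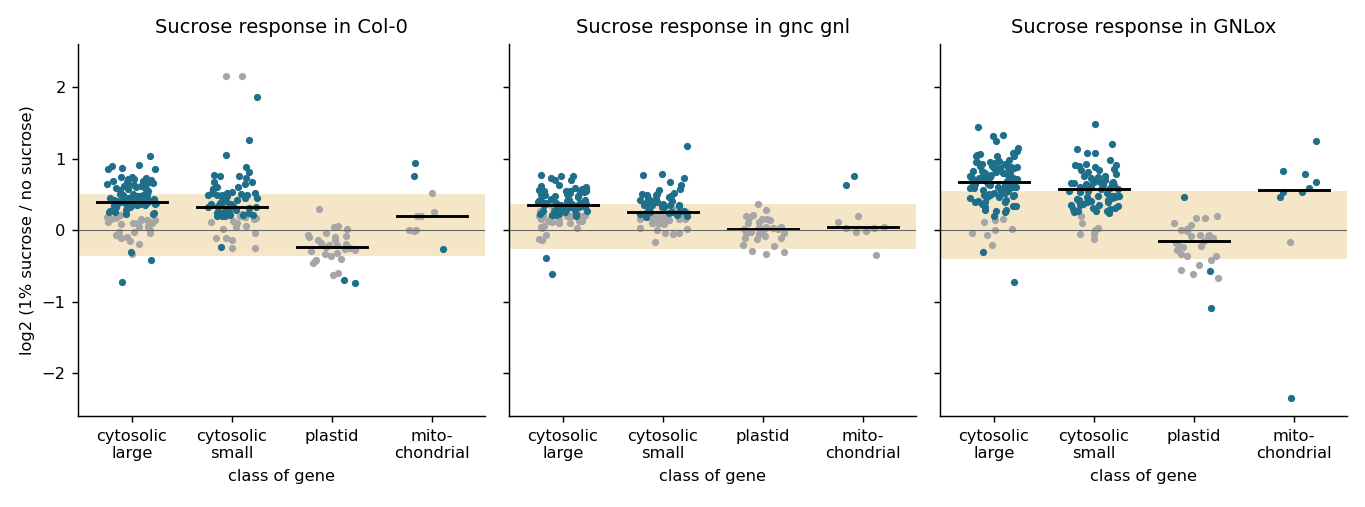
Log2 change with sucrose of each tested member in the 3 genotypes, by class, with blue points for genes called at adjusted p under 0.05, grey for the others, lines at the class medians and a band for the middle 50% of all tested genes. Cytosolic genes of both subunits lie mostly above 0 and plastid genes do not; 5 values of 3 low-count genes lie beyond the axis limit of 2.6 and are not drawn.

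The summed level shifted slightly toward the large subunit with sucrose. The ratio of summed TPM, large to small, was 1.241, 1.228 and 1.217 in Col-0 without sucrose and 1.260, 1.260 and 1.274 with it. It was 1.252, 1.232 and 1.239 in gnc gnl without and 1.300, 1.285 and 1.292 with sucrose. In GNLox it was 1.228, 1.199 and 1.180 without and 1.282, 1.277 and 1.295 with sucrose. The groups did not overlap in any genotype, and the difference of the means was at most 0.08. The sums take in several genes per protein and leave out proteins of both subunits under other names, so the ratio is not one of subunits.

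Transcripts of dividing cells moved with the same contrast. The sum of PCNA, MCM2 and KN, genes of DNA replication and cell division, ranged from 10.3 to 12.5 CPM in Col-0 without sucrose and from 21.6 to 29.4 with it, from 13.7 to 17.8 and 28.2 to 30.0 in gnc gnl, and from 7.67 to 13.1 and 29.9 to 33.5 in GNLox. All 3 genes of the list were detected and each was higher in every sucrose library than in every library without sucrose of its genotype. Root hair genes (PRP3, EXPA7, LRX1, COBL9) were under 1 CPM in each library without sucrose and between 1.71 and 19.1 CPM in each with it, while CASP1, a gene of the root endodermis, overlapped between the media in each genotype. Their part in the rise of ribosomal protein transcripts was not tested. In whole seedlings, more growing cells and more transcript per cell cannot be told apart.

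The most abundant members changed little or moderately. By mean TPM over all libraries the highest large-subunit genes were RPL19A (426 TPM), RPL14B (413) and RPL17B (360), and the highest small-subunit genes RPS8A (492), RPS23B (416) and RPS2C (381). RPS8A stood at 232, 239 and 238 CPM in Col-0 without sucrose and at 299, 296 and 299 with it, a rise of 0.33 ± 0.08 (SE) in log2 units (adjusted p = 0.003 in edgeR), and it rose by 0.59 ± 0.08 in GNLox. RPS2C stood at 264, 275 and 271 CPM in Col-0 without sucrose and at 269, 265 and 282 with it. These ranges overlapped, and its change was 0.01 ± 0.10 in Col-0, 0.04 ± 0.10 in gnc gnl and 0.11 ± 0.10 in GNLox, none of them called. RPL14B passed the test in gnc gnl (0.27) and GNLox (0.41) and not in Col-0 (0.14 ± 0.08, adjusted p = 0.172).

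The largest increases were of small-subunit RPS11B and RPS6A and large-subunit RPL41G_4, RPL24A, RPL10AC, RPL35AD, RPL27A and RPL12C_2, none of them the leading paralog of its family. RPS11B (chr4:15000960-15002671, plus strand) is a minor gene: 1.24, 1.09 and 0.70 CPM in Col-0 without sucrose and 1.94, 3.16 and 2.10 with it, a log2 change of 1.26 ± 0.21. RPL41G_4, which encodes the very short, basic L41 protein, was at 8.98, 8.75 and 7.86 CPM without and 17.7, 18.2 and 16.7 with sucrose in Col-0, a rise of 1.04 ± 0.12 (adjusted p = 1.0e-05), and it rose by 1.32 ± 0.12 in GNLox. RPL10AC, a gene of the L1 stalk protein, was at 11.1, 12.3 and 11.2 CPM without and 20.1, 21.9 and 22.4 with sucrose in Col-0. In each of these 3 genes the media did not overlap. RPL10AC rose by 0.90 ± 0.15 in Col-0 and by 1.44 ± 0.16 in GNLox, where it went from 9.78, 10.8 and 9.38 to 25.4, 31.9 and 24.0 CPM. RPL12C_2, a protein at the base of the P stalk where elongation factors bind, rose by 0.62 ± 0.13 in Col-0 and 1.25 ± 0.13 in GNLox. RPL35AD rose by 0.86, 0.76 and 1.15 in Col-0, gnc gnl and GNLox, and RPL27A rose by 0.50 in Col-0 and 1.32 in GNLox.

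Paralogs of 1 family often responded unequally. In 68 families at least 2 members averaged 2 CPM or more, and the median spread between their lowest and highest Col-0 response was 0.414 on the log2 scale. All such members rose in 20 of the 68 families in Col-0, 16 in gnc gnl and 52 in GNLox. In 4 families of Col-0, among them RPL7, RPL10 and RPS3, 1 paralog rose while another fell. The spread was wide in RPL41 (1.12), RPL7 (1.10), RPS19 (1.06) and RPL10 (1.02), and narrow in RPL17 (0.022) and RPS9 (0.031). Taken per family, summed CPM was higher with sucrose in 72 of 74 families in Col-0, 72 in gnc gnl and 73 in GNLox. In deposited TPM, which are not TMM-scaled, the counts were 73, 74 and 74, and the median family went from 265 to 332 TPM in Col-0 and from 252 to 492 in GNLox.

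**Figure D3:**
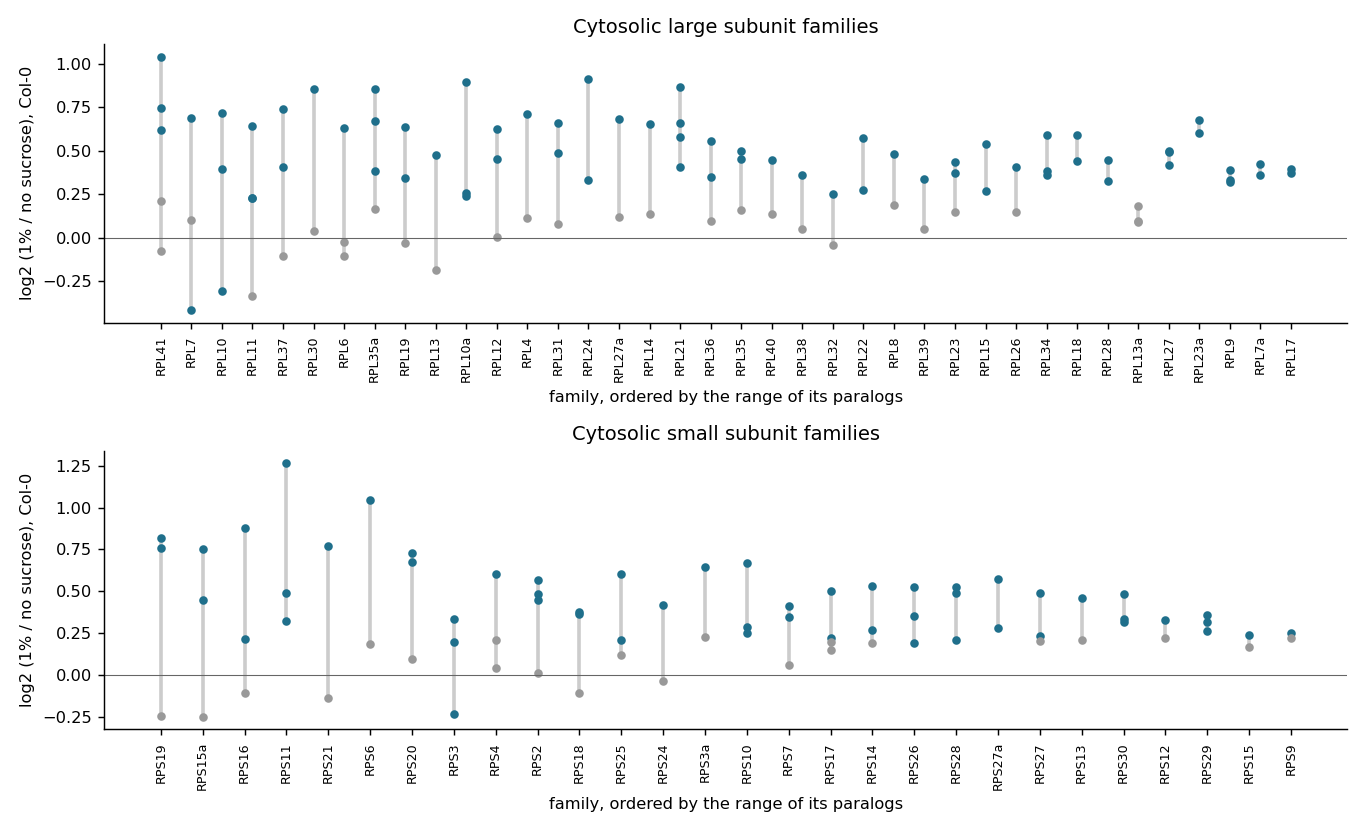
Log2 change with sucrose in Col-0 of each paralog in 66 of the families with at least 2 members averaging 2 CPM, 1 family per line, ordered by their spread. The spread runs from 0.022 in RPL17 to 1.12 in RPL41, and RPL7, RPL10 and RPS3 hold called changes in both directions.

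The most expressed paralog of a family tended to respond least. For this count the leading paralog was taken from the libraries without sucrose of the other 2 genotypes, so that the libraries ranking the genes were not those giving the response. In Col-0 the leading paralog had the lowest response of its family in 43 of 68 families; the median change of the 68 leading genes was 0.23, against 0.43 for the other 114 genes, and 33 of the 68 rose against 93 of the 114. In gnc gnl the leading paralog was lowest in 39 families, with medians of 0.22 and 0.36, and 37 of 68 rose against 78 of 114. In GNLox it was lowest in 46 families, with medians of 0.45 and 0.70, and 57 of 68 rose against 107 of 114. This pattern was noticed in the data and has no test, and the 3 counts share their genes. Many of these families held only 2 such genes, so a leading paralog would often be lowest without any pattern. The 16 cytosolic genes called in no genotype include leading paralogs such as RPS2C, RPS19A, RPS16C and RPS18C_3; RPS16C, for example, was at 238, 219 and 225 CPM in Col-0 without sucrose and at 204, 200 and 228 with it.

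RPS6 is the small-subunit protein that S6 kinase phosphorylates, and its 2 genes responded unequally. RPS6A (AT4G31700, chr4:15345979-15347804, minus strand) was at 55.1, 55.1 and 49.7 CPM in Col-0 without sucrose and at 115, 116 and 98.8 with it. In gnc gnl it was at 85.7, 75.2 and 63.5 without and 139, 124 and 125 with sucrose, and in GNLox at 83.4, 78.4 and 66.3 without and 184, 182 and 157 with sucrose. The media did not overlap in any genotype. RPS6A rose by 1.05 ± 0.12 in Col-0 (adjusted p = 1.1e-05), 0.79 ± 0.12 in gnc gnl and 1.20 ± 0.12 in GNLox. RPS6B (AT5G10360, chr5:3258404-3260254, minus strand), the more expressed gene, was at 157, 160 and 160 CPM without and 181, 179 and 184 with sucrose in Col-0. It did not overlap between media in Col-0 either, but the change was small: 0.19 ± 0.08 in Col-0 (adjusted p = 0.061), 0.16 ± 0.08 in gnc gnl (adjusted p = 0.143) and 0.35 ± 0.08 in GNLox (adjusted p = 0.0018). The RPS6A share of RPS6 TPM went from 26.1%, 25.7% and 23.8% to 39.1%, 39.7% and 35.2% in Col-0. It went from 30.4% ± 1.40 to 40.5% ± 0.925 in gnc gnl and from 31.6% ± 3.06 to 45.6% ± 1.09 in GNLox (SD, n = 3).

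RPL24, a large-subunit protein needed in Arabidopsis for translation to restart after upstream reading frames, repeated this order. RPL24A (AT2G36620, chr2:15350268-15352013, minus strand) was at 22.6, 20.4 and 20.8 CPM without and 41.2, 41.7 and 36.9 with sucrose in Col-0, a rise of 0.91 ± 0.12 with no overlap. RPL24B (AT3G53020, chr3:19660488-19662025, minus strand), known as SHORT VALVE1 from its role in the gynoecium, was at 62.8, 64.6 and 65.6 CPM without and 80, 79.0 and 84.2 with sucrose, a rise of 0.33 ± 0.08 (adjusted p = 0.0043). The RPL24A share of the family went from 22.8% ± 1.27 to 30.5% ± 2.01 in Col-0, from 25.5% ± 2.15 to 31.7% ± 1.03 in gnc gnl and from 24.9% ± 0.983 to 30.5% ± 0.424 in GNLox. Of the RPL4 genes, RPL4D went from 78.8, 86.1 and 83.0 to 139, 141 and 125 CPM in Col-0 and rose by 0.71 ± 0.09, whereas RPL4A, at 140, 158 and 156 without and 157, 170 and 164 CPM with sucrose, overlapped and changed by 0.12 ± 0.09 (adjusted p = 0.308). In RPS19 the leading gene RPS19A was at 113, 120 and 122 CPM without and 93.5, 96.3 and 111 with sucrose, a change of -0.24 ± 0.11 that was not called, while RPS19C went from 31.0, 30.9 and 30.5 to 55.7, 57.3 and 50 CPM and rose by 0.82 ± 0.08. The RPS19C share went from 19.8% ± 0.747 to 33.8% ± 3.42 in Col-0 and from 21.4% ± 1.08 to 38.4% ± 2.58 in GNLox.

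**Figure D4:**
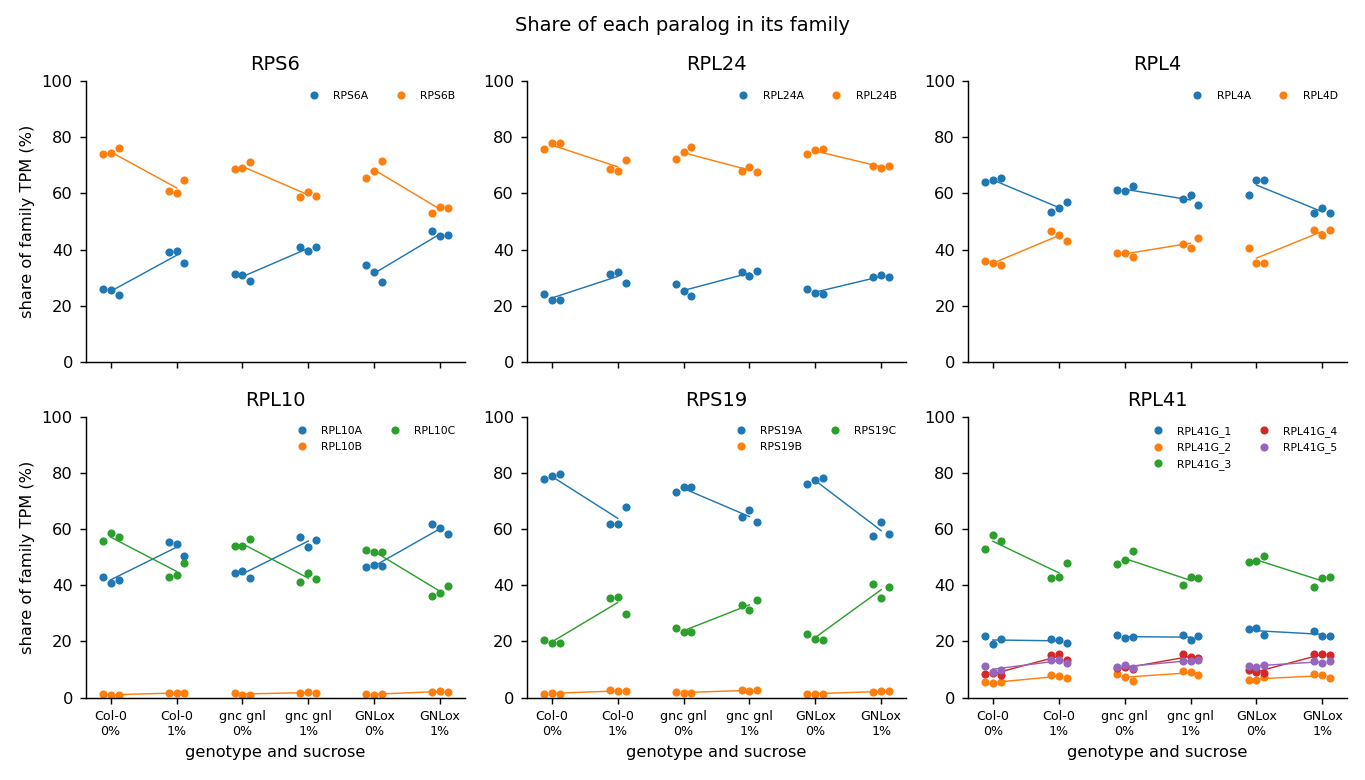
Share of each paralog in the summed TPM of its family in each library, for RPS6, RPL24, RPL4, RPL10, RPS19 and RPL41, by group. The shares of RPS6A, RPL24A, RPL4D, RPL10A, RPS19C and RPL41G_4 are higher with sucrose in each genotype, and RPL10A passes RPL10C as the leading gene of its family.

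RPL10, a protein that joins the large subunit late and is a target of an antiviral receptor kinase in Arabidopsis, was a family in which abundant paralogs moved in opposite directions. RPL10A (AT1G14320, chr1:4888114-4889704, plus strand) was at 165, 157 and 154 CPM without and 217, 212 and 197 with sucrose in Col-0 and rose by 0.40 ± 0.07. RPL10C (AT1G66580, chr1:24839090-24840806, plus strand), also known as the senescence-associated gene SAG24, was at 197, 208 and 191 CPM without and 155, 155 and 171 with sucrose in Col-0. In gnc gnl it was at 206, 196 and 203 and then 151, 165 and 148, and in GNLox at 199, 184 and 189 and then 151, 153 and 158. The media did not overlap, in either direction of change, and RPL10C fell in all 3 genotypes, by 0.38 ± 0.07 in gnc gnl and 0.31 ± 0.07 in GNLox. RPL10C held 57.1% ± 1.38 of the family's TPM in Col-0 without sucrose and 44.9% ± 2.67 with it, RPL10A 41.9% ± 1.21 and 53.5% ± 2.61. In GNLox the RPL10A share went from 46.8% ± 0.451 to 60.1% ± 1.84. RPL10B rose by 0.71 ± 0.19 in Col-0 from a mean of 3.22 CPM and held at most 2.36% of the family.

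The promoters of these 3 families are shown because their paralogs differed in response within 1 family. Each window holds 250 bases before the annotated start of the gene and 50 after it, read 5′ to 3′ on the strand of the gene from the TAIR10.1 assembly. Capitals mark 2 motifs known from Arabidopsis ribosomal protein promoters, on either strand: the telo box, AAACCCTA, and site II, TGGGCC or TGGGCT, whose letters do not overlap each other. RPS6A spans chr4:15347755-15348054 and RPS6B chr5:3260205-3260504, RPL24A chr2:15351964-15352263 and RPL24B chr3:19661976-19662275, all on the minus strand, and RPL10A spans chr1:4887864-4888163 and RPL10C chr1:24838840-24839139 on the plus strand.
RPS6A: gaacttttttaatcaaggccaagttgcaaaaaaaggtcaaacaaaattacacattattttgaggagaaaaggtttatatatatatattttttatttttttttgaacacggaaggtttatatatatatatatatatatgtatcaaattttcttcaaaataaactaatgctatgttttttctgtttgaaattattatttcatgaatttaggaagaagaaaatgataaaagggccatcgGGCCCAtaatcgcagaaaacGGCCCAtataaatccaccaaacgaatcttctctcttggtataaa
RPS6B: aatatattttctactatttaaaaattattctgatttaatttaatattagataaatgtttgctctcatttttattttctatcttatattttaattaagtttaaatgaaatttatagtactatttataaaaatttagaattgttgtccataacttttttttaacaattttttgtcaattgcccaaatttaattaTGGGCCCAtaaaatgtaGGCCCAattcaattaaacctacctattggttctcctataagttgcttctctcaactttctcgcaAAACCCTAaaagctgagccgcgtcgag
RPL24A: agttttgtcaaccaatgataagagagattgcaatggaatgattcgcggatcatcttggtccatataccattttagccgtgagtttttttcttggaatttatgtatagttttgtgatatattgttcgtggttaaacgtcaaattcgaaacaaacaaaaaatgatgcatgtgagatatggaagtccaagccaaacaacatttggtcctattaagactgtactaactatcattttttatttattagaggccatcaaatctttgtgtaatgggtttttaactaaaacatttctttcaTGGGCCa
RPL24B: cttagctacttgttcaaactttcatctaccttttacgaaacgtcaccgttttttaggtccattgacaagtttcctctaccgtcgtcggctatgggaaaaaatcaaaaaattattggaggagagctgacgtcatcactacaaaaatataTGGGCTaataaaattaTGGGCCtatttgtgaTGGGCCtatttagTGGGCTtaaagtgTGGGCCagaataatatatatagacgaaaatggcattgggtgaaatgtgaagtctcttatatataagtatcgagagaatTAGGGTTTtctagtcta
RPL10A: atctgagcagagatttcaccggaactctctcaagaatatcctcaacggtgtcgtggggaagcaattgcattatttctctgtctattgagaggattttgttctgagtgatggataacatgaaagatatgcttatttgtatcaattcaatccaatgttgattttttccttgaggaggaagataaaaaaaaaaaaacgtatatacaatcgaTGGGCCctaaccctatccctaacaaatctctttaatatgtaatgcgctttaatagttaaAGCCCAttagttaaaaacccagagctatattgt
RPL10C: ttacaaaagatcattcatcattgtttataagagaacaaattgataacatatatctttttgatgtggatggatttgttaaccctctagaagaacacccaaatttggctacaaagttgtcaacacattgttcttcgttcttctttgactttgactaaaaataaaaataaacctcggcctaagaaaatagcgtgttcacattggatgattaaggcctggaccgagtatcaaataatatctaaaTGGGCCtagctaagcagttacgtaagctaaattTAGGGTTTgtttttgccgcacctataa

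The windows of RPS6B and RPL24B, the less responsive genes of their pairs, and of RPL10C, which fell, held a telo box, and those of RPS6A, RPL24A and RPL10A held none. Over all families this was no rule. In 41 families some tested paralogs had a telo box and others did not, and the paralogs without one had the higher mean Col-0 response in 23 of the 41, with a median difference of 0.07; the counts were 21 of 41 in gnc gnl and 23 of 41 in GNLox. Among all 204 cytosolic genes 52.0% of windows held a telo box and 76.5% a site II, against 6.21% and 21.7% of 27419 windows of nuclear protein-coding genes. Both motifs stood together in 43.1% of the cytosolic and 2.20% of all windows. The subunits were alike in this, with telo boxes in 53.1% of large and 50.5% of small members and site II in 80.5% and 71.4%. Plastid members held a telo box in 21.9% and site II in 46.9% of 32 windows, mitochondrial members in 20% and 30.0% of 10. The median Col-0 response of the cytosolic genes averaging 2 CPM was 0.31 for the 80 with both motifs, 0.39 for the 66 with site II alone, 0.39 for the 15 with the telo box alone and 0.38 for the 27 with neither. A match is a run of letters, and no site of a factor was measured.

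In Col-0, 4 cytosolic genes fell with sucrose, among them RPL10C, RPL7D and RPS3C. RPL7D went from 58.6, 74.6 and 75.9 to 43.9, 53.2 and 59.6 CPM in Col-0, ranges that overlapped by 1 library, with a change of -0.41 ± 0.16 (adjusted p = 0.0394); its paralog RPL7B rose by 0.69 ± 0.10. RPS3C went from 112, 119 and 122 to 94.2, 101 and 106 CPM in Col-0 without overlap, a change of -0.23 ± 0.08 (adjusted p = 0.029), and was not called in gnc gnl or GNLox.

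Among genes known for developmental roles some rose and others were not called. RPS18C_1, whose loss gives the pointed first leaf phenotype, rose by 0.38 ± 0.08 in Col-0 and 0.55 ± 0.08 in GNLox, and RPS18C_2 by 0.36 ± 0.06 and 0.67 ± 0.06, while RPS18C_3, the most expressed of the 3 at 94.1, 94.7 and 104 CPM in Col-0 without sucrose and 89.9, 85.2 and 97.8 with it, was not called in any genotype. RPS13B, also known from a pointed first leaf mutant, rose in GNLox by 0.47 ± 0.09 and missed the threshold in Col-0 (0.21 ± 0.09, adjusted p = 0.0633). RPS13A rose by 0.46 ± 0.08 in Col-0. RPL5B, which binds 5S rRNA on its way into the large subunit, went from 90.8, 103 and 94.5 to 127, 133 and 126 CPM and rose by 0.42 ± 0.10. Its paralog RPL5A, listed as ATL5_1 and outside the name pattern, rose by 0.52 ± 0.09. RPL23AA and RPL23AB rose by 0.68 and 0.60 in Col-0 and by 0.92 and 0.89 in GNLox.

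In gnc gnl the sucrose response of cytosolic genes could not be told apart, gene by gene, from that of Col-0. No gene of the 21903 passed the test of the difference in edgeR, 0.0% in either direction, where 609 higher and 1047 lower had an unadjusted p under 0.05 and DESeq2 called 12 higher and 56 lower. Of the 191 cytosolic genes, 1 was higher and 2 lower at an unadjusted p under 0.05 and DESeq2 called 0. Their median difference was -0.04, and 31.4% of them were above 0, compared with 50.7% of all genes. Levels themselves tended to be higher in the libraries labelled gnc gnl. Without sucrose 10 of the 191 cytosolic genes were called higher than in Col-0 and 0 lower in edgeR, where 1.29% of all genes were called in either direction. DESeq2 called 46 of the 191 higher and 0 lower, where it called 742 higher and 287 lower of all 21903 genes. At an unadjusted p under 0.05, 104 of the 191 were higher and 0 lower, with no count over all genes. The 10 genes were RPL30B, RPL21A_1, RPL24A, RPL21A_2, RPS10C, RPL6A, RPS14B, RPS19C, RPS3AA and RPS12C_1. RPL30B was at 29.2, 28.9 and 26.9 CPM in Col-0 and at 52.2, 40.3 and 34.8 in gnc gnl, with no overlap and a difference of 0.58 ± 0.12 (adjusted p = 0.032). RPL21A_1 was at 28.7, 28.6 and 26.5 CPM and at 47.0, 38.7 and 34.0, a difference of 0.51 ± 0.10. In both genes gnc gnl replicate 1 was the highest and replicate 3 the lowest. The count rested on single libraries: it was 0 without any 1 of the 3 Col-0 libraries or of gnc gnl replicates 1 and 2, and 49 without gnc gnl replicate 3. Without that last library 638 genes were higher and 270 lower among all 22147 tested. The median difference over the cytosolic genes was 0.20, with 94 of 191 not overlapping against 24.7% of all genes.

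With sucrose the median difference between gnc gnl and Col-0 was 0.16, and no cytosolic gene was called in edgeR, where 0.0548% of all genes were higher and 0.105% lower. DESeq2 called 3 of the 191 higher and 0 lower, where it called 113 higher and 228 lower of all 21903 genes. At an unadjusted p under 0.05, 64 of the 191 were higher and 2 lower, with no count over all genes. The groups did not overlap for 111 of 191, compared with 32.3% of all genes.

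GNLox without sucrose had cytosolic ribosomal protein levels close to those of Col-0, with single genes on both sides. In all 6 cytosolic genes were higher and 8 lower, beside 6.53% and 7.0% of all genes, and the median difference was 0.01 in the large and 0.04 in the small subunit. The summed level differed by 0.023 and 0.049 on the log2 scale in CPM and by -0.12 and -0.089 in deposited TPM, so its direction depended on the scaling. Deviations from the group means correlated between same-numbered libraries in this comparison, at r of 0.409, 0.126 and 0.26. However, GNLox replicate 2 correlated more with Col-0 replicate 3 (0.176) than with its own number. With the replicate number as a block, the calls were 22, of which 12 were higher and 10 lower. Over all 21903 genes the block gave 1525 higher and 1586 lower. RPS6A was the highest of the 6, with a difference of 0.51 ± 0.12 (adjusted p = 0.0095), and all 3 GNLox libraries lay above all 3 of Col-0. RPL6A was at 56.8, 60.6 and 59.3 CPM in Col-0 and at 74.5, 75.5 and 74.9 in GNLox, with no overlap and a difference of 0.35 ± 0.09 (adjusted p = 0.0169). The others were RPL21E_1 (0.28), RPL22B (0.27), RPL10A (0.25) and RPS3B (0.24). Among the 8, RPS9C, which holds 6.59% of its family beside RPS9B, was at 11.3, 9.73 and 10.7 CPM in Col-0 and at 6.43, 5.81 and 6.89 in GNLox, a difference of -0.73 ± 0.12 (adjusted p = 0.0014) without overlap. RPL37A (-0.68), RPS16B (-0.58) and RPS2A (-0.48) followed, then RPL31A, RPL41G_3, RPL23A_2 and RPL22C. RPS2A drew 85.6% of its reads from a unique place.

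With sucrose GNLox was higher than Col-0 across the cytosolic set. The test called 95 of the 191 genes higher and 1 lower, beside 10.2% and 10.2% of all genes, with 57 higher in the large and 38 in the small subunit and medians of 0.29 and 0.24. The groups did not overlap for 139 of the 191, compared with 37.4% of all genes. The summed CPM was higher in 73 of 74 families. This count of families is no sign of called changes: it was also 73 for gnc gnl against Col-0 with sucrose, where no cytosolic gene was called in edgeR and 3 in DESeq2, with 64 higher and 2 lower at an unadjusted p under 0.05. Without sucrose it was 50 of 74 for GNLox against Col-0, and 20 in deposited TPM. RPS6A was at 115, 116 and 98.8 CPM in Col-0 and at 184, 182 and 157 in GNLox, a difference of 0.66 ± 0.12 (adjusted p = 0.0017). RPL6A was at 89.4, 94.8 and 89.1 CPM and at 141, 147 and 126, a difference of 0.60 ± 0.09. Both genes were also called higher in GNLox without sucrose. RPS21B was at 44.1, 43.7 and 36.8 CPM and at 64.5, 62.0 and 56.2, a difference of 0.55 ± 0.10, and RPL10B differed by 0.60 ± 0.18. The groups did not overlap in any of these genes. RPS9C was again the exception, at 11.8, 13.3 and 11.9 CPM in Col-0 and 7.38, 8.47 and 9.74 in GNLox, a difference of -0.53 ± 0.11 (adjusted p = 0.0052). The count of calls was 96 with all libraries, 58 without Col-0 replicate 3, 57 without GNLox replicate 2 and 50 without GNLox replicate 1.

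The larger sucrose response of GNLox was spread over the set in small steps. The response minus that of Col-0 had a median of 0.28 over the large and 0.21 over the small subunit, and it was above 0 in 97.9% of the 191 cytosolic genes, where it was above 0 in 49.8% of all genes. Since both responses were fitted on the same scaling, the genes' differences are not independent of each other. Only RPL7A passed the test among cytosolic genes, beside 0.762% of all genes higher and 0.356% lower. DESeq2 called 7 of the 191 higher and 0 lower, beside 435 higher and 438 lower of all 21903 genes. At an unadjusted p under 0.05, 76 of the 191 were higher and 0 lower, with no count over all genes. RPL7A (AT1G80750, chr1:30348670-30350564, plus strand), a gene of the L7 family, was at 14.8, 17.0 and 15.4 CPM without and 15.7, 16.5 and 18.4 with sucrose in Col-0, and at 14.5, 15.3 and 13.7 without and 23.4, 26.7 and 22.3 with sucrose in GNLox. The media overlapped in Col-0 and did not in GNLox, and the response differed by 0.63 ± 0.12 (adjusted p = 0.0273). That call was lost without any 1 of 8 of the 12 libraries compared, which are named with the alternatives.

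**Figure D5:**
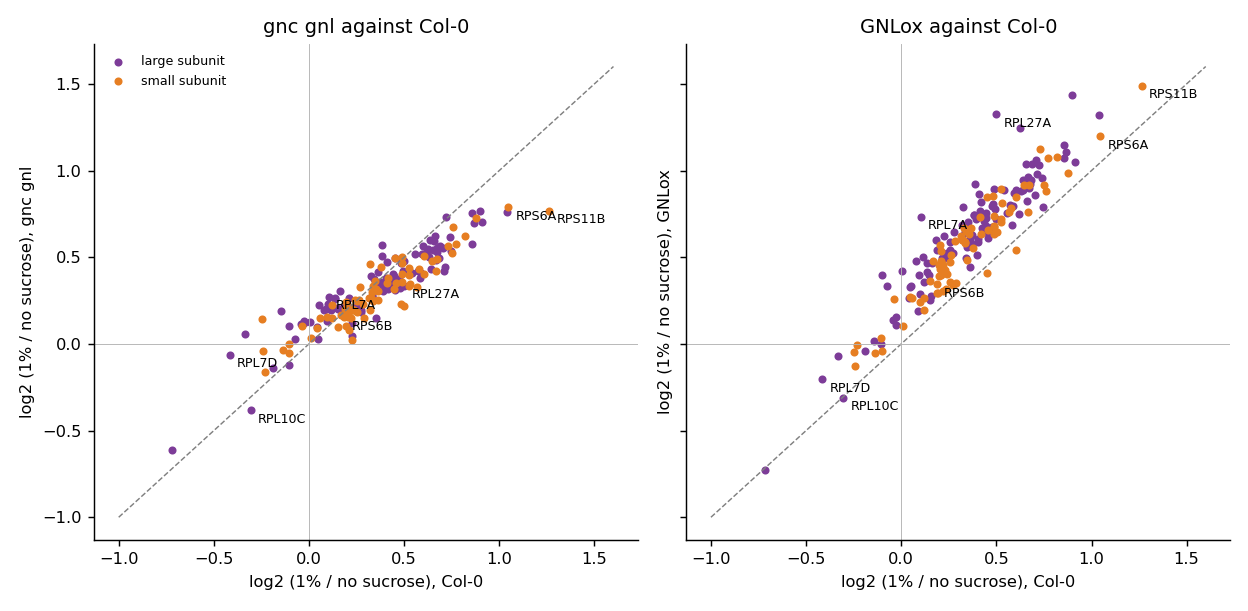
Log2 change with sucrose in gnc gnl and in GNLox against that in Col-0 for the 188 cytosolic members averaging at least 2 CPM, with a dashed line where the responses are equal. Points of gnc gnl lie around the line and those of GNLox mostly above it; the 2 panels share the Col-0 libraries.

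Few plastid ribosomal protein genes were called for sucrose. With sucrose the estimated difference from Col-0 was above 0 for nearly all plastid genes in both other genotypes, although their summed levels overlapped. Their summed level was 1654, 2362 and 2397 CPM in Col-0 without sucrose and 1508, 1743 and 1827 with it, and 2169, 3031 and 2989 and then 1639, 3528 and 1446 in GNLox. The media overlapped in both. Of 31 tested plastid genes 0 rose and 2 fell in Col-0 in edgeR (0 and 3 at an unadjusted p under 0.05, and 0 and 2 in DESeq2), with a median change of -0.24, where 26.0% of all genes rose and 23.8% fell. In gnc gnl 0 rose and 0 fell, at an unadjusted p under 0.05 and in DESeq2 as well, beside 17.9% and 14.3% of all genes, and the median was 0.02. In GNLox 1 rose and 2 fell, beside 28.7% and 26.1%, with a median of -0.15. Both shares of called genes were below those of all genes in each genotype. The falling genes were RPL3A and RPL29, proteins of the plastid large subunit: RPL29 went from 160, 213 and 232 to 94.2, 115 and 152 CPM in Col-0, a change of -0.74 ± 0.30 (adjusted p = 0.0492), and from 189, 307 and 327 to 92.8, 208 and 86.0 in GNLox, where replicate 2 with sucrose stayed within the range without sucrose. RPL3B was the one that rose in GNLox, by 0.46 ± 0.11. LHCB1.3 and LHCB3, light-harvesting genes of the seedling's plastids, summed to 862 to 1300 CPM in Col-0 without sucrose and 3300 to 6160 with it. Their sum overlapped between the media in gnc gnl (1560 to 5280 without and 4290 to 6490 with sucrose). It also overlapped in GNLox (1300 to 2930 and 2230 to 8280). Plastid-genome reads were a lower share in GNLox with sucrose (0.915% to 1.55%) than without (3.44% to 23.3%). The part of these light-harvesting genes and plastid-genome reads in the plastid genes' levels was not tested. Between genotypes the plastid medians moved the same way as the cytosolic ones with sucrose. The plastid median was 0.41 in GNLox against Col-0 and 0.33 in gnc gnl against Col-0, with 96.8% of the 31 genes above 0 in each, beside cytosolic medians of 0.26 and 0.16. The plastid sums with sucrose overlapped those of Col-0 in both genotypes. Only replicate 2 of GNLox (3528 CPM) lay above the Col-0 range, and replicates 1 and 3 did not (1639 and 1446). The sums of gnc gnl were 2272, 2239 and 1805 CPM, of which replicate 3 lay within that range. In GNLox 1 of the 31 was called higher and 0 lower in edgeR and in DESeq2 (5 and 0 at an unadjusted p under 0.05), beside 10.2% of all genes in each direction. In gnc gnl 0 were called in edgeR or in DESeq2, and 1 was higher and 0 lower at an unadjusted p under 0.05. Without sucrose the plastid median was 0.34 in GNLox against Col-0, where the cytosolic one was 0.03, and 0.05 in gnc gnl. For GNLox 0 of the 31 were called higher and 1 lower, in edgeR and in DESeq2, beside 6.53% and 7.0% of all genes. At an unadjusted p under 0.05, 2 were higher and 1 lower. For gnc gnl 0 were called in edgeR or in DESeq2, and 1 was higher and 0 lower at an unadjusted p under 0.05. The plastid genes' sucrose response in gnc gnl minus that in Col-0 had a median of 0.27, with 93.5% of the 31 above 0. None was called for this difference in edgeR or DESeq2, or at an unadjusted p under 0.05. For GNLox minus Col-0 the median was 0.02, with 54.8% above 0.

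Most mitochondrial ribosomal protein genes rose with sucrose in GNLox. Their sum was 90.4, 87.6 and 82.4 CPM in Col-0 without sucrose and 94.5, 94.3 and 90.9 with it, and 85.0, 81.3 and 84.5 and then 121, 114 and 110 in GNLox. Of 10 tested, 2 rose and 1 fell in Col-0, 2 rose and 0 fell in gnc gnl in edgeR (2 and 0 at an unadjusted p under 0.05 and in DESeq2), and 8 rose and 1 fell in GNLox. Beside the shares of all genes (26.0% and 23.8%, 17.9% and 14.3%, 28.7% and 26.1%), the counts of rising genes were near the background in Col-0 and gnc gnl and above it in GNLox. RPS13_1 rose in each genotype, from 3.58, 2.83 and 2.67 to 6.08, 6.11 and 5.28 CPM in Col-0 without overlap, by 0.94 ± 0.16, and by 1.25 ± 0.16 in GNLox. RPS9M (AT3G49080, chr3:18194154-18196784, minus strand), a small-subunit protein, was at 15.7, 15.6 and 14.8 CPM without and 16.3, 15.7 and 14.1 with sucrose in Col-0, and at 14.9, 13.5 and 13.2 without and 23.2, 22.2 and 21.0 with it in GNLox. The media overlapped in Col-0 and lay apart in GNLox, and the response differed by 0.67 ± 0.12 (adjusted p = 0.0222). That call was lost without any 1 of 6 of the 12 libraries compared, with adjusted p from 0.0522 to 0.0732 in edgeR: Col-0 replicates 2 and 3 without and 2 with sucrose, and GNLox replicates 2 and 3 without and 1 with sucrose. RPS9M drew 80.4% of its reads from a unique place.

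The disease-resistance genes with the ribosomal prefix went their own ways. RPS6 (AT5G46470) was not called for sucrose in any genotype and was lower in GNLox than in Col-0 with sucrose, at 16.6, 20.9 and 21.2 against 31.3, 30.7 and 39.1 CPM, a difference of -0.79 ± 0.16 (adjusted p = 0.0039). RPS4_1 and RPS4B_2 were not called in any comparison. RPS2_2 had no unique read and was uneven between replicates, so its values are not interpreted.

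Other parts of the ribosome and its control, listed apart from the name pattern, were tested in the same fit. The shares of all genes that rose and fell, against which these counts are to be read, were 26.0% and 23.8% in Col-0, 17.9% and 14.3% in gnc gnl and 28.7% and 26.1% in GNLox. Of 11 tested acidic P stalk genes, which recruit elongation factors, 9 rose with sucrose in Col-0, 7 in gnc gnl and 10 in GNLox, and RPP0A fell in GNLox. RPP2D rose by 0.95 ± 0.12 and RPP2B by 0.73 ± 0.09 in Col-0. All 5 genes of small-subunit protein SA and of RACK1, a scaffold on the small subunit, rose in Col-0 and in GNLox, and 2 in gnc gnl; RACK1C rose by 1.47 ± 0.14 in Col-0, 0.87 ± 0.14 in gnc gnl and 1.71 ± 0.14 in GNLox. Among 14 translation factors 6 rose and 2 fell in Col-0, 5 and 2 in gnc gnl, and 10 and 1 in GNLox, with EIF4E1 up 0.36 and EIF4A1 down (-0.29 ± 0.07) in Col-0; the falling ones were no more frequent than among all genes. Transcripts of the TOR pathway went the other way: 4 of 6 fell in Col-0, 3 in gnc gnl and 5 in GNLox and 0 rose in edgeR. TOR itself changed by -0.43 ± 0.09, its partner RAPTOR1 by -0.42 ± 0.08 and the S6 kinase gene ATPK1 by -0.58 ± 0.13 in Col-0. NUCL1, a nucleolin needed for rRNA gene expression, changed by 0.02 ± 0.09 in Col-0 and rose by 0.66 ± 0.09 in GNLox. Of 124 tested genes under other names whose product text names a ribosomal protein, 43 rose and 15 fell in Col-0. The counts were 30 and 10 in gnc gnl, and 66 and 14 in GNLox. That set mixes cytosolic and organellar genes, takes in LOS1 of the translation factors and shares genes with the P stalk and SA lists.

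Cytosolic members shared 1 pattern over the 18 libraries. The correlation of each of 188 genes with the mean log2 CPM of all 188 had a median Pearson r of 0.937 (middle 50% from 0.855 to 0.970), a description in which all points share library scaling and each gene is part of the mean. RPL10C (r = -0.836) ran opposite to it, and RPL7D, RPS21C, RPS19A, RPS3C, RPS16C and RPS18C_3 followed between -0.36 and -0.15. Among the other genes tested, the 5 most like the mean over the 18 libraries were ATL5_1 (r = 0.994), RPP0B (0.988), RPP2B (0.984), AT1G64880 (0.983), annotated as a ribosomal protein S5 family gene, and AT4G05400 (0.976), annotated as a copper ion binding protein.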

How the data were processed

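RNA-seq libraries of 18 whole-seedling samples, 3 per group, were analysed from the deposited tables, 1 per library, of 32833 genes. The authors deposited counts, per the file headers, of total, unique and exon reads per gene, where total reads include those with more than 1 match, and TPM values. Reads were mapped to TAIR 10 per the submitters' processing notes, whereas the sources used here do not state the aligner, counter, library kit or strand. All 253 members have the same start and end in the reference, TAIR 10.1.

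Total gene read counts were tested with edgeR 4.0.16 (limma 3.58.1, R 4.3.3): TMM scaling, filterByExpr, 1 model of 6 group means with robust quasi-likelihood F tests, two-sided, Benjamini-Hochberg adjusted over 21903 genes and called at 0.05. Errors of log2 changes are standard errors from the F statistic. The labels state no test. CPM are TMM-scaled; family shares and comparisons of levels between genes use the deposited TPM. Python 3.11.15 was used for the rest. The test was checked on simulated counts.

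Members were classed by annotation; counts cover all of them, but a few single members and families are not reported here. The members and gene lists were chosen with earlier results of these data known. Named genes are the non-ribosomal members, the 3 highest by TPM per subunit, the called genes with the largest changes in each comparison among those averaging at least 2 CPM, called differences of responses, and all paralogs of families chosen by name or by spread of response. RPS16C, the genes called in no genotype and the pattern of leading paralogs were added after values were seen. Depth was 27362791 to 41942516 gene reads per library; at these depths 3 counts, the floor of detection, are far below the 2 CPM required.

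Replicate numbers are shared by the groups. Only in GNLox against Col-0 without sucrose was every correlation of deviations between same-numbered libraries over 0.1 (0.409, 0.126 and 0.26). Even there GNLox replicate 2 correlated more with Col-0 replicate 3 (0.176), so these values do not establish a shared batch. Alternatives were DESeq2 1.42.0, its size factors in edgeR, no filter, only the groups compared, a replicate block, unique or exon reads, nuclear genes without rRNA genes, and each library left out. RPKM and intron read columns were not used in tests.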

Additional observations from a re-analysis of the deposited data

Results flagged for a closer look

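RPL7A and RPS9M had a sucrose response in GNLox that differed from that in Col-0 by the test of the difference itself. For RPL7A, of the cytosolic large subunit, the response was 0.63 higher in log2 units (adjusted p = 0.0273 in edgeR), from 0.10 in Col-0 to 0.73 in GNLox, and the GNLox libraries with sucrose all lay above those without. For RPS9M, of the mitochondrial small subunit, it was higher by 0.67 (adjusted p = 0.0222), from 0.00 to 0.67. Leaving out single libraries ended the RPL7A call in 8 cases of 12, with adjusted p up to 0.0941, and the RPS9M call in 6 of 12, with adjusted p up to 0.0732. DESeq2 called 7 of 191 cytosolic genes higher and 0 lower in this difference, and 2 of 10 mitochondrial genes higher and 1 lower. Over all 21903 genes it called 435 higher and 438 lower.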

How the results depend on the processing

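No called result of a named gene reversed its direction under any alternative that tested it. Called members that are not named were not checked for direction. The counts of cytosolic genes called for sucrose stayed within 1.5 times under every alternative, and with single libraries left out they ranged from 117 to 131 (Col-0), 86 to 140 (gnc gnl) and 166 to 173 (GNLox). Over the alternatives the median change with sucrose in the large subunit ranged from 0.373 to 0.402 (Col-0), 0.279 to 0.423 (gnc gnl) and 0.616 to 0.746 (GNLox), and the medians of the gnc gnl difference of responses and of GNLox against Col-0 on MS (large subunit) crossed 0. Counts between genotypes were unstable. For gnc gnl against Col-0 without sucrose the count was 10, and it was 0 with only the groups compared, 46 with DESeq2 and 0 to 49 over left-out libraries. With sucrose it was 0, 3 with DESeq2 and 0 to 0 over left-out libraries. For GNLox against Col-0 without sucrose it was 14, and 7 without the filter, 4 with only the groups compared and 5 to 9 over left-out libraries (7, 6 and 6 without Col-0 replicates 1 to 3, and 9, 5 and 7 without those of GNLox, the last being the library with the most rRNA reads). With sucrose it was 96, and 35 with only the groups compared and 50 to 114 over left-out libraries (67, 61 and 58 without Col-0 replicates 1 to 3, and 50, 57 and 114 without those of GNLox). For the difference of responses between GNLox and Col-0 it was 1, and 0 with only the groups compared, 7 with DESeq2 and 0 to 4 over left-out libraries. It was 4 without GNLox replicate 1 on MS, and 0 without Col-0 replicates 2 or 3 on MS, Col-0 replicates 1 or 2 with sucrose, GNLox replicates 2 or 3 on MS and GNLox replicates 1 or 2 with sucrose. Fits of only the groups compared have fewer libraries to estimate the spread; beyond this the causes were not tested.

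With the replicate number as a block, the count was 31 for gnc gnl against Col-0 without sucrose. Over all 21903 genes 355 were then higher and 145 lower. It was 22 for GNLox against Col-0 without sucrose, beside 1525 higher and 1586 lower over all genes. For the difference of responses between GNLox and Col-0 it was 3, beside 205 higher and 90 lower over all genes. The block moved no other count by over 1.5 times. The sources used here do not state that same-numbered samples share more than a number.

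Summed levels depended on the unit. As deposited TPM, which are not TMM-scaled, the large-subunit sum differed with sucrose by 0.375, 0.665 and 1.064 on the log2 scale in Col-0, gnc gnl and GNLox, and the small-subunit sum by 0.334, 0.607 and 0.969. For gnc gnl against Col-0 with sucrose the sums differed by 0.393 and 0.362, and for GNLox against Col-0 with sucrose by 0.569 and 0.547. For GNLox against Col-0 without sucrose they were -0.12 and -0.089, where CPM gave 0.023 and 0.049. From unique reads the small-subunit sum in Col-0 differed by 0.254. Of 200 called results of named genes, 144 kept their call under every alternative.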
